A study of Mus musculus with 2 samples.

Results

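The secretory pathway, N-glycan and GPI anchor genes examined here were the 78 genes whose names on the array matched a fixed set of symbol patterns (Sec61 to Sec63, Ssr, Sec11, Alg, Dpm, Pig, Sec13 and Sec22 to Sec31, Tmed and the COPI subunits), with Pigr, an antibody receptor, left out. They were 78 of 30163 genes and were covered by 118 of 39429 probes. The set was chosen by its NYT against control differences on these same arrays, so those differences are given as a description, with no test. The genes fell into 6 steps by textbook role: translocation and signal cleavage (12 genes), the N-glycan precursor (14), the GPI anchor (21), the COPII coat with the ER-Golgi SNAREs of the Sec22 family (12), the p24 cargo receptors (11) and the COPI coat (8).

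The study measured 2 cultures of bone marrow mononuclear cells from mouse femurs (strain C57/Bl6J, age 2 to 4 months), harvested in IMDM that held 2% fetal bovine serum and taken at day 11. One culture had received the herbal drug ninjin'yoeito (NYT), a Kampo mixture of plant extracts, and the other was the untreated negative control. Each was hybridised to 1 Agilent 1-colour array, so there was no replicate, no spread between cultures and no p-value. The labels state neither the NYT dose nor whether animals were shared between the 2 cultures.

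Proteins bound for the cell surface, the lysosome or secretion enter the endoplasmic reticulum (ER) through the Sec61 channel, lose their signal peptide there, and many receive a preassembled N-glycan or a glycosylphosphatidylinositol (GPI) anchor. COPII-coated vesicles then carry them to the Golgi, p24 family receptors help to select cargo, GPI-anchored proteins among it, and COPI-coated vesicles bring escaped ER components back. Mouse bone marrow macrophages and granulocytes use this route for their granule enzymes, adhesion receptors and cytokines.

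Levels are given as scaled intensity, a probe's processed intensity divided by the 75th percentile of its own array, and differences as log2 of NYT over control on that scale. That percentile was 728 on the NYT array and 1476 on the control array, a ratio of 2.03, so scaling added 1.02 to every log2 difference. Well above background were 22753 probes (57.7%) on the NYT array and 24506 (62.2%) on the control array, and no spot was saturated. Across the 16996 genes measured on both arrays, the median difference was 0.29 with scaling and -0.73 without it. Spot noise alone gave a median SD of 0.053 for a difference (247 probes with repeated spots), and the scanner software's own error for a member's difference was 0.204 in the median and at most 0.330, neither of which covers variation between cultures. Bulk RNA does not tell fewer cells of a type from less RNA per cell.

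The sequences printed next show what the values of 5 members were read from, since 1 or 2 oligonucleotides cover each of these genes. The Alg11 and Sec63 probes gave their genes' values; the Tmed2, Tmed9 and Ssr3 probes are the dimmer ones of their pairs, shown beside the brighter ones' values further on. They are the array's 60-base probes, 5′ to 3′, with positions on mouse build mm9 from the scanner files. The Alg11 probe lay at chr8:23178618-23178677, the Tmed2 probe at chr5:124996912-124996971, the Tmed9 probe at chr13:55694637-55694696, and the Sec63 probe, whose ends are more than its own length apart in the genome, at chr10:42543733-42547689. The Ssr3 probe lay at chr3:65191675-65191734 on the minus strand. Their differences, NYT minus control, were 1.22 for Alg11, 1.29 for Tmed2, 0.93 for Tmed9, 1.01 for Sec63 and 1.53 for Ssr3.
Alg11: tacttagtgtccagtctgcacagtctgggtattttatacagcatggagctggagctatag
Tmed2: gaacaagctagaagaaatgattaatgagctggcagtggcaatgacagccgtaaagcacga
Tmed9: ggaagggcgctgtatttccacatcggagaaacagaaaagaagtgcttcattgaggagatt
Sec63: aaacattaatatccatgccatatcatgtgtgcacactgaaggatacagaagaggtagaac
Ssr3: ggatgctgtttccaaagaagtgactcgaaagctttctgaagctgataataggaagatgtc

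Of the 78 genes, 74 were measured on both arrays. After scaling, 9 of them (12.2%) were at least 2-fold higher on the NYT array, against 11.2% of all measured genes, a share near the background. None of the 74 was at least 2-fold lower, against 11.0% of all measured genes. Above 0 lay 65 members (87.8%), against 64.5% of all measured genes, and above the median of all measured genes lay 48 (64.9%), as 50% of all genes do. Their median difference was 0.50, against 0.29 for all measured genes, and they ranged from -0.72 to 3.26. Since these same values chose the set, nothing further is read from the counts. The highest were Pigt, Pigw and Pigg of the GPI anchor, Alg2, Alg11 and Alg1 of the N-glycan precursor, Tmed9 and Tmed2 of the p24 receptors, and Sec63 of the translocation step. The threshold ran through a close group, with Alg1 at 1.08, Tmed9 at 1.03, Tmed2 at 1.02 and Sec63 at 1.01 inside it, and Alg12 at 0.97, Tmed10 at 0.96, Tmed7 at 0.94 and Sec61g at 0.90 outside.

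Whether a member was higher or lower in absolute terms depended on the scaling. Without it, 8 members stood higher on the NYT array (10.7% of all measured genes did) and 66 lower, with a median of -0.52. Those 8 were Pigt, Pigw, Pigg, Alg2, Alg11, Alg1, Tmed9 and Tmed2, and of these Tmed2 had 31144 on the NYT array and 31136 on the control array. In the unscaled values 11 members were at least 2-fold lower, against 36.4% of all measured genes, and 1 was at least 2-fold higher, Pigt, against 1.24%. The members' median exceeded that of all measured genes by 0.21 with and without scaling, because scaling adds the same amount to every gene.

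**Figure D1:**
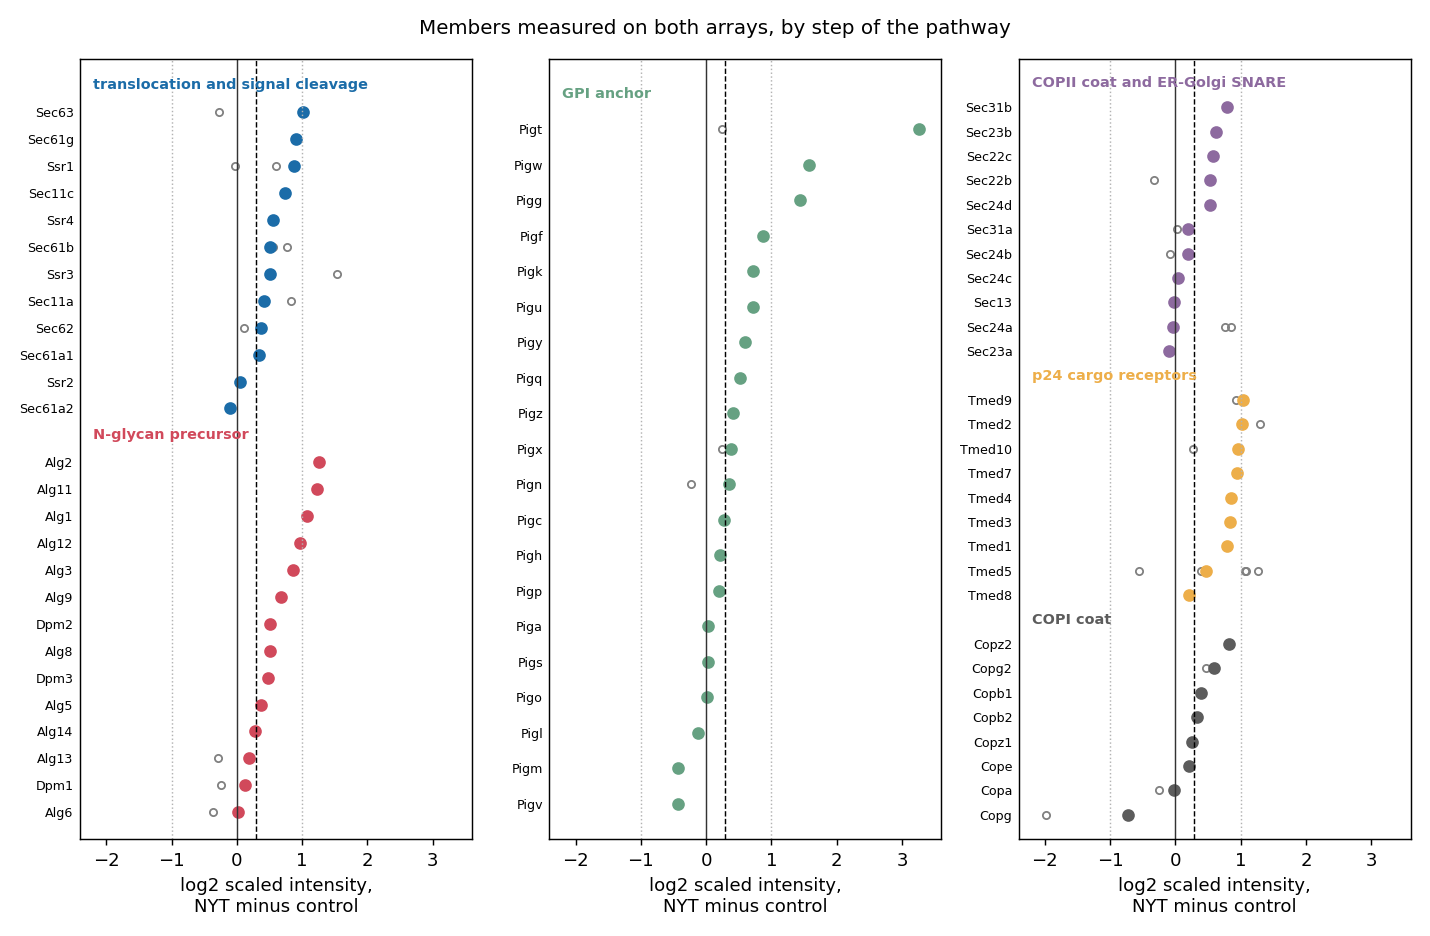
Log2 difference in scaled intensity, NYT minus control, for the 74 members measured on both arrays, by step. Filled points are the brightest measured probe of a gene and open points its other measured probes; the dashed line is the median of all measured genes (0.29) and the dotted lines are 2-fold. Filled points lie past the upper dotted line for 9 genes and past the lower one for none.

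The steps differed in their medians. The p24 receptors had the highest, 0.85 over 9 measured genes, followed by the N-glycan precursor with 0.51 over 14 and translocation and signal cleavage with 0.51 over 12. The GPI anchor genes had 0.36 over 20, the COPI coat 0.29 over 8, and the COPII coat with the Sec22 proteins 0.19 over 11. The median of all measured genes, 0.29, lay within that range: the COPI coat matched it and the COPII step lay below it. With 1 array per group these step differences have no test. The order is for the brightest probe of each gene, and other probes of the same genes could differ in sign, as given further on.

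In the translocation step, Sec63, a membrane J-domain protein that recruits the chaperone BiP to the channel, had 1.27 on the NYT array and 0.633 on the control array. Sec61g, the small gamma subunit of the channel, followed with 44.2 on the NYT array and 23.7 on the control array, a difference of 0.90. Both were higher on the NYT array after scaling, Sec63 barely past 2-fold and Sec61g just short of it. The other channel subunits differed less, with 0.51 for the beta subunit Sec61b and 0.34 for the pore-forming Sec61a1. Sec61a2, the second pore-forming paralog, was lowest in the step at -0.10, with 0.320 on the NYT array and 0.342 on the control array. The Ssr genes encode the 4 subunits of the translocon-associated protein complex, which sits beside the channel. Ssr1 had a difference of 0.87, Ssr4 0.55, Ssr3 0.51 and Ssr2 0.04. Ssr2, with 3.75 on the NYT array and 3.64 on the control array, was the second lowest of the step and lay below the median of all genes. Sec11c and Sec11a, catalytic subunits of the signal peptidase, had 0.74 and 0.42, and Sec62, a partner of Sec63, 0.38. In all, 1 of these 12 genes passed 2-fold (8.33%, against 11.2% of all measured genes), and 11 lay above 0 (91.7%, against 64.5%).

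In the N-glycan precursor step, 3 of 14 genes passed 2-fold (21.4%, against 11.2% of all measured genes). They encode the mannosyltransferases that work on the cytosolic face of the ER. Alg2, which adds the second and the third mannose, had 8.10 on the NYT array and 3.38 on the control array, a difference of 1.26. Alg11, which adds the last mannoses of that face, had 0.919 on the NYT array and 0.393 on the control array, a difference of 1.22, read by the probe printed above. Alg1, which adds the first mannose, had 5.38 on the NYT array and 2.54 on the control array, a difference of 1.08. All 3 also stood higher on the NYT array without scaling, by 0.24, 0.21 and 0.06. Alg13 and Alg14, which form the enzyme that acts just before Alg1 on the same face, had differences of 0.18 and 0.28, at or below the median of all genes. On the lumenal side, the mannosyltransferases Alg12, Alg3 and Alg9 had 0.97, 0.87 and 0.67, and the glucosyltransferases Alg8 and Alg6 had 0.51 and 0.02. Alg5, which makes the glucose donor, had 0.38. Dpm1, Dpm2 and Dpm3, the catalytic and stabilising subunits of the mannose donor's synthase, had 0.13, 0.51 and 0.48. The lowest of the step were Alg6, with 0.492 on the NYT array and 0.486 on the control array, and Dpm1, with 2.83 on the NYT array and 2.59 on the control array. All 14 lay above 0 (100%, against 64.5% of all measured genes), and 10 lay above the median of all genes (71.4%, against 50%).

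The GPI anchor genes held both the highest differences and the widest range. Pigt, a subunit of the transamidase that attaches the finished anchor to proteins, had 17.5 on the NYT array and 1.83 on the control array, a difference of 3.26 or 9.60-fold. It ranked 36th from the top of the 16996 measured genes, but its second probe had a difference of 0.25. Pigw, which acylates the inositol ring, had 0.0710 on the NYT array and 0.0237 on the control array, a difference of 1.58 at a low signal, with the largest scanner error among the members (0.330). Pigg, which adds a side-chain ethanolamine phosphate, had 0.418 on the NYT array and 0.154 on the control array, a difference of 1.44. These 3 were the only GPI anchor genes past 2-fold (15% of the 20 measured, against 11.2% of all measured genes). Pigf, the partner of both Pigg and Pigo, had 0.86. Pigo, which adds the ethanolamine phosphate that bridges to the protein, had 0.01, and Pign, which places another side-chain one, 0.34. The other transamidase subunits in the set had 0.72 for the catalytic Pigk, 0.71 for Pigu and 0.03 for Pigs. Gpaa1, a transamidase partner outside the set, had -0.07. The size of the Pigt difference was thus not seen in its partners.

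The first step of GPI synthesis is carried out by a complex with 6 Pig subunits among these genes. Its catalytic subunit Piga had 0.04, and Pigp, Pigh, Pigc, Pigq and Pigy had 0.20, 0.22, 0.27, 0.52 and 0.60. None of the 6 passed 2-fold, against 11.2% of all measured genes higher and 11.0% lower. The transcript accession of the Pigy probe belongs to Pyurf in RefSeq, a gene that shares its transcript with Pigy, so that value stands for either. The lowest GPI anchor genes were the mannosyltransferases Pigv, with 1.07 on the NYT array and 1.44 on the control array (-0.43), and Pigm, with 0.229 on the NYT array and 0.308 on the control array (-0.43). Pigx, the partner of Pigm, had 0.38, Pigz, which adds a further mannose, 0.42, and Pigl, the deacetylase, -0.13. Pigb, the mannosyltransferase that acts after Pigv, was well above background on the control array alone, and the bound on its difference was too small to give a fold.

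**Figure D2:**
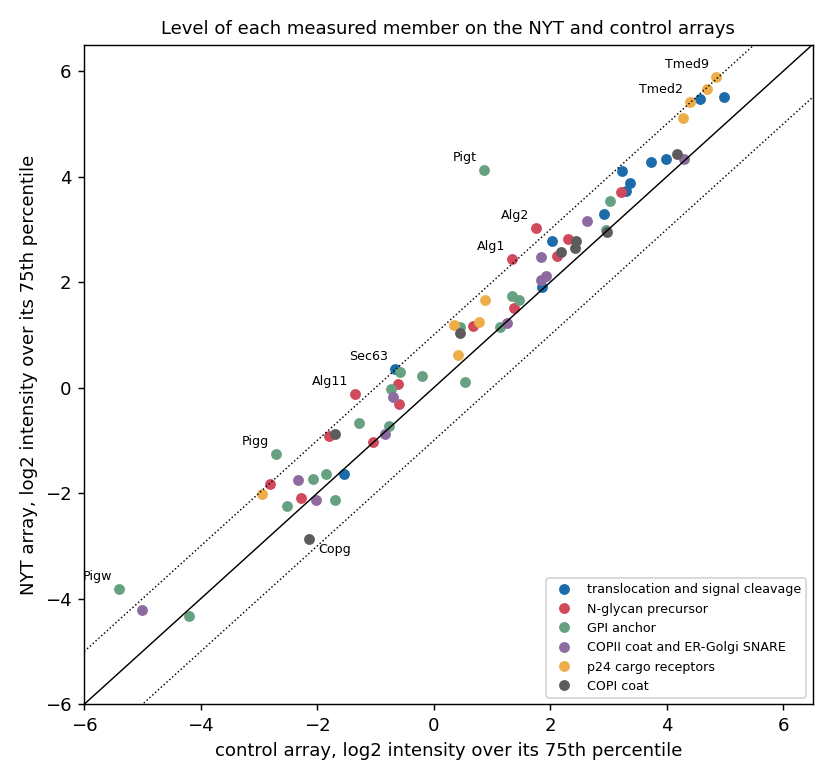
Log2 scaled intensity of the 74 measured members on the NYT array (vertical) and on the control array (horizontal), coloured by step, with lines of equality (solid) and of 2-fold difference (dotted). Pigt stands far above the upper dotted line, Pigw and Pigg are dim on both arrays, and Tmed9 and Tmed2 are bright on both.

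None of the 11 measured COPII and Sec22 genes passed 2-fold, against 11.2% of all measured genes higher and 11.0% lower. Sec31b, a paralog of the outer coat subunit Sec31a, was highest at 0.79 but dim, with 0.0539 on the NYT array and 0.0310 on the control array. Sec23b, an inner coat subunit that activates the GTPase Sar1, followed with 5.55 on the NYT array and 3.59 on the control array, a difference of 0.63. Its paralog Sec23a was lowest, with 0.230 on the NYT array and 0.246 on the control array, a difference of -0.10. The cargo-binding Sec24 paralogs had 0.53 for Sec24d, 0.19 for Sec24b, 0.04 for Sec24c and -0.04 for Sec24a, which had 0.542 on the NYT array and 0.557 on the control array. The outer coat subunits Sec31a and Sec13 had 0.19 and -0.02. Thus 6 of the 9 coat genes lay above 0 (66.7%, against 64.5% of all measured genes), a share near the background. The 3 below 0 were lower by no more than the scanner error. The vesicle SNARE Sec22b had 0.53 and Sec22c, a related protein, 0.57, while Sec22a stayed near background on both arrays.

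All 9 measured p24 receptors lay above 0 (100%, against 64.5% of all measured genes), and 8 of them above the median of all genes (88.9%, against 50%). Of the 9, 2 passed 2-fold (22.2%, against 11.2%). Tmed9 had 58.9 on the NYT array and 28.8 on the control array, a difference of 1.03, and Tmed2 had 42.8 on the NYT array and 21.1 on the control array, a difference of 1.02. Tmed10, which pairs with Tmed2, had 50.4 on the NYT array and 25.8 on the control array, a difference of 0.96. These 3 genes, which represent different p24 subfamilies, had close differences at their brightest probes and were bright on both arrays. Their other probes were less close, with 0.27 for Tmed10, 0.93 for Tmed9 and 1.29 for Tmed2. Processing also moved these genes: Tmed9 and Tmed2 had 0.60 and 0.63 with quantile normalization, and 0.51 and 0.53 with loess between the arrays. Tmed7, Tmed4, Tmed3 and Tmed1 had 0.94, 0.85, 0.84 and 0.79. Tmed5 had 0.46, with 2.35 on the NYT array and 1.71 on the control array, and Tmed8, a less typical family member, was lowest at 0.20, with 1.54 on the NYT array and 1.34 on the control array. Tmed6 and Tmed11 stayed near background on both arrays.

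In the COPI coat no gene of 8 passed 2-fold in either direction, against 11.2% of all measured genes higher and 11.0% lower. Copz2, a paralog of the zeta subunit, was highest, with 0.546 on the NYT array and 0.308 on the control array, a difference of 0.83. Copg2, a gamma paralog, had 2.06 on the NYT array and 1.36 on the control array, a difference of 0.60. The subunits Copb1, Copb2, Copz1 and Cope had 0.40, 0.33, 0.25 and 0.21, close to the median of all genes. Copa, the alpha subunit, had 7.74 on the NYT array and 7.82 on the control array, a difference of -0.02. Copg, the gamma subunit that RefSeq calls Copg1, was the lowest of all members at -0.72, with 0.138 on the NYT array and 0.227 on the control array, and its dimmer probe was lower still at -1.98.

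For 25 members more than 1 probe was measured, and these did not always carry the same difference. In 10 of the 25 the probes had opposite signs, against 26.2% of all genes with several measured probes, and in 5 they lay more than 1 apart, against 16.8%. The 10 were Sec63, Ssr1, Alg13, Dpm1, Alg6, Pign, Sec22b, Sec24b, Sec24a and Tmed5. The widest gap was that of Pigt (3.01), followed by Tmed5 with 1.82 over 6 probes, Sec63 with 1.28, Copg with 1.26 and Ssr3 with 1.03. In Sec63 the other probe had -0.27 against 1.01 for the one printed above, and in Ssr3 the dimmer printed probe had 1.53 against 0.51 for the brighter one. For Sec24a the brightest probe, at -0.04, was the lowest of 3, the highest being 0.85. The Tmed5 probes ran from -0.55 to 1.26, and 5 of its 7 probes were designed on cDNA clones rather than on the RefSeq transcript.

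The 2 Pigt probes read different transcript records: the bright one a RefSeq transcript at chr2:164333740-164333799, and the other an Ensembl transcript at chr2:164328561-164328620 (mm9, plus strand). Their last 30 bases are printed because the gene's place at the head of the set rests on 1 of them; the capitals mark AATAAA, the letters of the common polyadenylation signal.
Pigt, bright probe: cttactgatgtAATAAAgtggcagccttcc
Pigt, other probe: gattaaagaagttgactcgataacacaaac
AATAAA stands in the bright probe's stretch and not in the other, which holds the similar letters ATTAAA near its start, left unmarked. The letters therefore do not set the 2 probes apart as with and without such a signal. No further reading of the difference was tested.

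The pairs of probes on 1 transcript were also set in order along it, a comparison chosen after the member values had been seen. Of 20 transcripts of 19 members with such a pair, 12 (60.0%) had the larger difference at the probe nearer the 5′ end, against 60.4% of 3160 transcripts of all genes. Tmed5 counted with 2 transcripts, which ran in opposite directions. With at least 500 bases between the probes, it was 9 of 13 members (69.2%), against 70.5% of 2058 transcripts. These shares are near those of all genes. At that distance the 5′ probe exceeded the 3′ probe by a median of 0.37 in the members and 0.30 in all genes. The part of probe position in the members' values was not tested. The 5′ probe exceeded the 3′ probe by 0.61 or more in Sec63, Ssr3, Ssr1, Sec24a, Tmed10 and the RefSeq transcript of Tmed5. The widest gap ran the other way, in a cDNA clone of Tmed5 whose 5′ probe lay 1.82 below its 3′ probe, 255 bases further on.

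**Figure D3:**
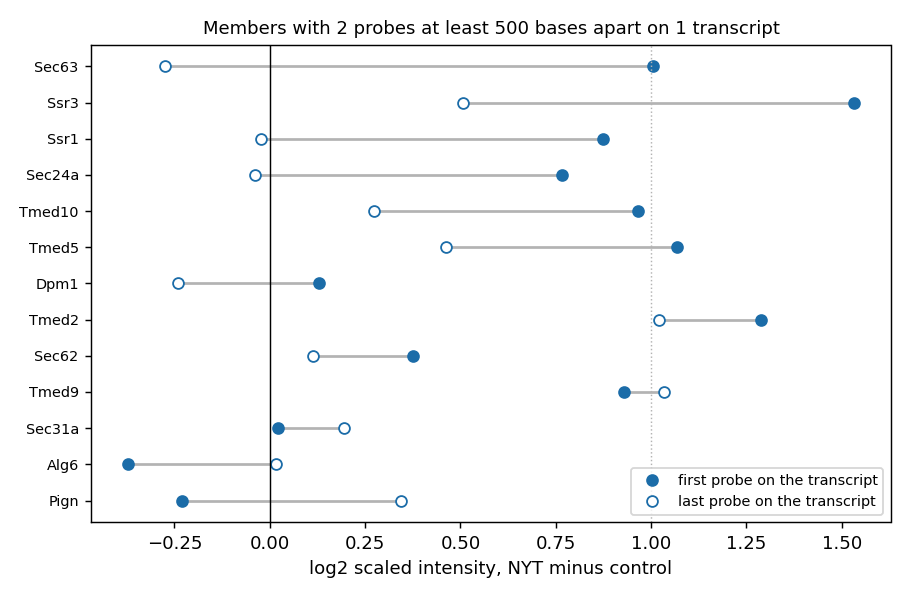
Log2 difference in scaled intensity, NYT minus control, of the first (filled) and the last (open) probe along the transcript, for the 13 members with probes at least 500 bases apart on 1 transcript. The filled point lies to the right in 9 of the 13 genes; Tmed9, Sec31a, Alg6 and Pign run the other way.

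The neighbouring genes of the pathway were taken from 6 lists of textbook members, which differed among themselves. Of 117 genes, 112 were on the array and 109 were measured on both, with a median of 0.48. At least 2-fold higher were 16 of them (14.7%, against 11.2% of all measured genes), and 1 was lower by that much (0.917%, against 11.0%). Among genes of signal recognition and other translocation, 6 of 17 measured (35.3%, against 11.2%) were at least 2-fold higher and none lower (against 11.0%). Hspa5, the chaperone BiP that Sec63 recruits, had 132 on the NYT array and 40.3 on the control array, a difference of 1.71. Srp54b had 2.99, but near-identical copies of that gene exist and probes may not tell them apart, so its value is uncertain. The related Srp54a had 0.20 at its brightest probe and 1.17 at its other probe. The other 4 of the 6 genes at least 2-fold higher were Tram2 at 1.29, Spcs2, a signal peptidase subunit, at 1.26, Srp14 at 1.08 and Srprb at 1.01.

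Of the 26 dolichol and oligosaccharyltransferase genes, 5 were at least 2-fold higher (19.2%, against 11.2% of all measured genes) and none lower (against 11.0%). They were Nus1 (1.58), a subunit of the enzyme that makes the dolichol chain, Krtcap2 (1.46) and Magt1 (1.26), oligosaccharyltransferase subunits, Pmm1 (1.22), a phosphomannomutase, and Dpagt1 (1.01), which starts the N-glycan precursor just before Alg13 and Alg14 act. Of the 19 genes of N-glycan trimming and lectin folding, 2 were at least 2-fold higher (10.5%, near the 11.2% of all measured genes) and none lower. They were Edem2 at 1.27 and Prkcsh, the glucosidase II beta subunit, at 1.15. Among 18 measured COPII assembly and cargo adaptor genes, 3 were at least 2-fold higher (16.7%, against 11.2%) and none lower. These were Ergic1, Mcfd2 and Cnih1, with 1.37, 1.06 and 1.04. Of 22 measured genes of COPI assembly, SNAREs and retrieval none passed 2-fold at its brightest probe (against 11.2% higher and 11.0% lower). Dimmer probes of Arcn1 and Arf4 did, with 1.84 against 0.51 at the brightest for Arcn1 and 1.22 against 0.76 for Arf4. The 7 measured genes of the GPI transamidase partner and remodelling list had a median of 0.30, near the 0.29 of all measured genes. Of these 7, 4 lay above 0 (57.1%, against 64.5%), none was at least 2-fold higher and 1 was lower (14.3%, against 11.0%). That gene was Pgap4, a GPI glycan-modifying enzyme, with 0.0513 on the NYT array and 0.971 on the control array, a difference of -4.24. It was read from 1 probe, and its NYT value was as dim as that of Pigl (0.0497), so the size of the difference is uncertain.

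Markers of the cells that such a culture could hold differed between the arrays. Summed scaled intensity of 8 mast cell and basophil markers was 0.689 on the NYT array and 35.6 on the control array, and none of the 6 measured on both lay above 0. For neutrophil markers the sums were 309 on the NYT array and 659 on the control array (0 of 8 above 0), and for stromal markers 6.36 on the NYT array and 18.1 on the control array (1 of 6 measured above 0, Lepr). Without Col1a2 (-4.39) the stromal sums were 5.89 on the NYT array and 8.25 on the control array. Macrophage markers summed to 279 on the NYT array and 274 on the control array, but without Cd68 (1.18) to 102 on the NYT array and 196 on the control array. Of the 7 measured, 2 lay above 0, and the median was -0.93, with Mrc1 lowest at -1.97. Pan-leukocyte markers summed to 271 on the NYT array and 251 on the control array (3 of 6 above 0), but without Tyrobp (0.32) to 85.9 on the NYT array and 102 on the control array. Plasma cells, which have a large secretory apparatus, had marker sums of 37.5 on the NYT array and 80.1 on the control array, and without Jchain of 36.7 on the NYT array and 36.9 on the control array. Jchain and Derl3 had -5.80 and -2.66, 3 of the 7 measured lay above 0 (Irf4 at 0.18 and Prdm1 at 0.01 among them), Tnfrsf17 was well above background on the control array alone, and Xbp1, a regulator of secretory genes that other cells also express, had 0.11. Most measured markers of every list except the pan-leukocyte one were thus lower on the NYT array, and the part of the cell mixture in the members' values was not tested.

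Promoters were searched for letters bound by regulators of the unfolded protein response, a search chosen after the member values had been seen and given with no test. The windows ran from 250 bases before to 50 after each start site (RefSeq, GRCm38.p6), on both strands, and 66 members had one. ACGTGGC, a core of XBP1 and ATF6 sites, was found in 17 of the 66 (25.8%), against 3.39% of 17491 protein-coding genes. TGACGTGG, which shares 6 letters with it, was found in 5 (7.58%), against 0.823%. Windows of the members were also richer in GC (60.3%, against 56.3%) and in CpG (20 per window, against 13), and the part of that composition in the matches was not tested. The full ER stress element, CCAAT and CCACG with 9 bases between them, was found in 1 member, Alg12 (1.52%, against 0.166%), and its second form, ATTGG and CCACG with 1 base between them, in none (0.0629% of coding genes). TGATGNAAT, the ATF4 element, was found in none (0.926%), and TGACGTCA, the cyclic AMP response element, in 2, Alg13 and Cope (3.03%, against 2.54%). The 15 members measured with ACGTGGC had a median difference of 0.51 and the 48 without it 0.42. The 5 with TGACGTGG had 0.33 and the 58 without it 0.47. The 2 with TGACGTCA had 0.20 and the 61 without it 0.46, and Alg12, with the full element, had 0.97. Whether the motifs bear on the differences was not tested.

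The promoter stretches that follow show the matches in genes of 4 steps, with the letters of ACGTGGC, TGACGTGG or their complements in capitals, 5′ to 3′ on the gene's strand. They come from Ssr3 (chr3:65392698-65392784, minus strand), Sec63 (chr10:42761433-42761495, plus strand), Pigw (chr11:84880230-84880316, minus strand), Copb1 (chr7:114254681-114254748, minus strand) and Sec24d (chr3:123267430-123267495, plus strand), all on GRCm38.p6.
Ssr3: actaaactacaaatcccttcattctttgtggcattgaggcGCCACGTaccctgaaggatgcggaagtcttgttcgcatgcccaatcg
Sec63: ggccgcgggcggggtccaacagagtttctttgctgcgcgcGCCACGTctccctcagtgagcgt
Pigw: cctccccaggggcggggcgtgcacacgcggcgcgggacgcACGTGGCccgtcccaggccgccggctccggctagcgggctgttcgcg
Copb1: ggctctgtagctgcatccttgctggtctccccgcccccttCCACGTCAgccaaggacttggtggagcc
Sec24d: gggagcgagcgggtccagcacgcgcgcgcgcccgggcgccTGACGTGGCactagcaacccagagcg
The match began 191 bases before the start site in Ssr3, 23 in Sec63, 81 in Pigw, 28 in Copb1 and 26 in Sec24d. These genes had differences of 0.51, 1.01, 1.58, 0.40 and 0.53, and Sec13 and Copg, whose windows also held ACGTGGC, had -0.02 and -0.72. A match describes letters in a window and not a bound site.

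The members' median and that of all measured genes were recomputed under other ways of processing the same 2 arrays. The members' median was 0.33 after quantile normalization, 0.13 after loess between the arrays and -0.68 when the arrays were set to their spike-in controls. The median of all genes moved with it, and the members' median was the higher in every setting except 1: with probes near background included, both medians were 0.50. Median scaling, no scaling and spike-in scaling shift all genes by the same amount, so there the excess of 0.21 was fixed in advance. The other settings reprocess the same 2 arrays, whose values chose the set, and are no independent check. The comparison with all genes therefore depends on the filter for dim probes.

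**Figure D4:**
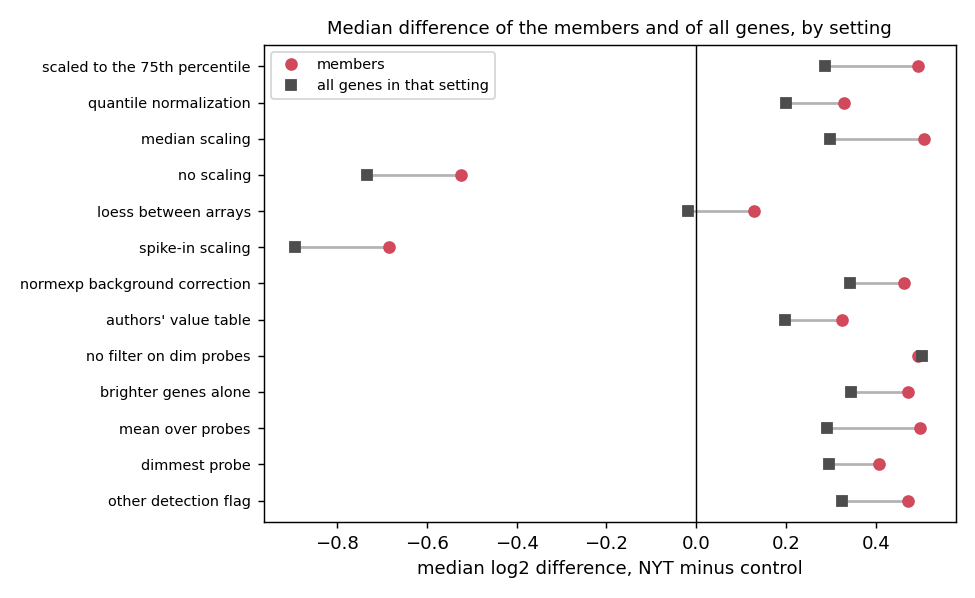
Median log2 difference, NYT minus control, of the members (circles) and of all genes measured in the same setting (squares), for the scaled values and 12 other ways of processing the arrays. Circles lie to the right of squares except with no filter on dim probes, and both lie below 0 with no scaling and with spike-in scaling.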

How the data were processed

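Gene expression was measured on 2 arrays of 1 colour, 1 per culture. Spot intensity values (processed signal), error estimates and flags, deposited by the authors, are the scanner output of Agilent Feature Extraction, which is version 10.7.1.1 per the file headers and 9.5.1.1 per the submitters' processing notes. Per the file headers no scaling between arrays had been applied. A value table deposited by the authors held a linear intensity per probe with a median of 72.1 in both columns; the ranks in a column matched those of its array (Spearman 0.999996 for NYT and 0.99996 for control, 0.935 crossed), and its making is not stated in the labels.

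Outlier spots (165 on the NYT array and 258 on the control array) were left out. Log2 intensities were averaged over a probe's spots and set to each array's 75th percentile. A gene took its brightest probe well above background (over 50% of its spots) on both arrays, and a call was a 2-fold difference. Members were matched by the name in the files; other probes were named through RefSeq GRCm38.p6. Computation used Python 3.11.15, pandas 2.3.3 and limma 3.58.1 (loess and normexp alternatives), and was tested on simulated data. Values are given for members at least 2-fold apart and for the 2 highest and the 2 lowest of each step; further members were named so that each is accounted for. The number of arrays limits the precision. The members, the lists, the rule for named genes and the alternatives were chosen with earlier results of these data known; the summed marker levels, the subunit groups, the probe-order comparison, the promoter search and the choice of printed sequences were added after the member values had been seen. The RNA extraction kit differs between the labels and the design text.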

Additional observations from a re-analysis of the deposited data

Results flagged for a closer look

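One signal outside the comparison stood apart. The spike-in control transcript E1A_r60_a107, 1 of 8 detected of the 10 added, was 2.25 higher in log2 intensity on the NYT array before scaling. The other 7 detected spike-ins differed by -0.12 to 0.24. The 75th percentile of all probes was 2.03-fold lower on the NYT array than on the control array, and setting the arrays to the spike-ins gives the members a median of -0.68.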

How the results depend on the processing

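The absolute values depended on the scaling. Members at least 2-fold higher (9 as reported) numbered 1 without scaling, 4 with loess, 1 with spike-in scaling, 5 among brighter genes alone, 1 at a 3-fold and 28 at a 1.5-fold threshold. Members at least 2-fold lower (0 as reported) numbered 11 without scaling, 16 with spike-in scaling, 1 with the mean over probes, 1 with the dimmest probe and 1 at 1.5-fold. The members' median of 0.50 became 0.33 with quantile normalization and with the authors' table, -0.52 without scaling, 0.13 with loess and -0.68 with spike-in scaling. Its excess over all genes, 0.21, became -0.0082 with no filter on dim probes. It was 0.11 with the dimmest probe, 0.12 with normexp, 0.13 with brighter genes alone, the authors' table and quantile normalization, and 0.15 with loess and with the other detection flag; the cause was not tested. Step medians without scaling and with spike-in scaling were -0.51 and -0.67 for translocation, -0.51 and -0.67 for the N-glycan precursor, -0.66 and -0.82 for the GPI anchor, -0.83 and -0.99 for COPII, -0.17 and -0.33 for p24 and -0.73 and -0.89 for COPI. Translocation was 0.21 with quantile normalization and with the authors' table and 0.063 with loess, and COPII was -0.11 with loess. No scaling and spike-in scaling shift all genes by 1 amount; for quantile normalization, the authors' table and loess the cause was not tested. Of single genes, Sec63 was -0.013 without scaling, -0.17 with spike-in scaling and -0.27 with the dimmest probe, and Alg1, Tmed9 and Tmed2 were -0.10, -0.15 and -0.16 with spike-in scaling. Pigt was 2-fold higher in 11 of 12 settings, all but the dimmest probe (0.25). The other called members were so in fewer: Alg2 in 9 of 12, and Alg11, Pigw and Pigg in 9 of 11 each. Alg1 passed in 7 of 12, Tmed2 in 6 of 12, Tmed9 in 5 of 12 and Sec63 in 4 of 11. No paired analysis was possible because there was 1 array for NYT and 1 for control. No replicate could be left out for the same reason, and signal over background limits the dimmest members, Pigw, Sec31b and Pigl.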
